A study of Mus musculus with 20 samples.

Results

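Skeletal muscle genes were read here in libraries of dorsal root ganglia, a tissue made of sensory neuron cell bodies, glia and vessels. The set holds 32 mouse genes of the contractile apparatus and energy supply of striated muscle, found by matching Ensembl gene IDs to their symbols, and it makes up 32 of the 55416 genes in the count table. All 32 were matched and all had counts in at least some libraries, and 26 were detected in every one of the 19 libraries used. The name of a gene set of this kind does not show how its RNA came to be in a ganglion library, and that was not tested.

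Skeletal muscle fibres contract when myosin heavy chains of the thick filament pull on actin of the thin filament, under the control of the troponin complex, which binds calcium released from the sarcoplasmic reticulum. Fast and slow fibres use separate genes for many of these proteins: fast fibres of the mouse carry mainly the myosins encoded by Myh4, Myh1 and Myh2, and slow fibres the myosin encoded by Myh7. Sensory ganglia lie between the vertebrae beside the muscles of the back, and no muscle fibre is a normal part of a ganglion.

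The libraries came from lumbar ganglia (levels L3, L4 and L5) of 10 adult C57Bl6 mice of both sexes, each giving 1 library after formalin injection, an inflammatory irritant, and 1 noninjected library. By their titles 5 animals were controls with floxed Prdm12 alleles (P12 Fl/Fl TAM) and 5 were inducible conditional knockouts (icKO; AdvCreERT2; P12 Fl/Fl TAM), so that floxed alleles and tamoxifen were common to every group, and tissue was taken 1 month after tamoxifen. The characteristics name a Cre recombinase driven by Adv, a promoter of sensory neurons, while the series text names one driven by Rosa26, a ubiquitous promoter. Ganglia were microdissected in cold buffer and kept in TRIzol, and polyA RNA was sequenced with a kit that does not keep the strand.

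The 19 libraries held 11763893 to 22392635 counts, and 0 pairs of them were identical. The library labelled icKO 1 formalin held 2829 counts, 0 of them on the muscle genes, which allows a summed level of up to 1060 CPM (counts scaled to a library total of 1000000; 3 counts of this library's total), and it is not part of the groups below. For 4 animals (control 1, control 4, icKO 2 and icKO 3) the genotype in the title and the genotype word under which the counts were deposited differ. Prdm12, the targeted gene and a regulator of pain-sensing neurons, followed the deposited word: it stood at 77.0 to 105 CPM in the 6 control libraries with agreeing records and at 14.5 to 23.3 in the 5 such icKO libraries, but at 23.3 to 38.9 in the 4 control libraries and at 73.3 to 112.5 in the 4 icKO libraries whose records differ. Groups follow the titles, and a library is therefore named by its label. The labelled genotype groups hence mix animals with high and low Prdm12, because in these 4 animals Prdm12 stood opposite to the genotype in the title. A count of 0 genes called between labelled genotypes carries this limit, and fits by the deposited word are given beside it.

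Levels are CPM scaled with TMM, a factor that makes libraries of unlike composition comparable. The summed level of the 32 genes in the noninjected control libraries 1 to 5 was 51.2, 65.8, 61.1, 88.3 and 75.1 CPM. In the formalin control libraries it was 46.7, 54.1, 67.7, 499 and 57.2 CPM. The noninjected icKO libraries stood at 40.7, 93.3, 66.1, 73.7 and 64.9 CPM, and the formalin icKO libraries 2 to 5 at 58.8, 45.7, 82.5 and 2914 CPM. Only the libraries labelled icKO 5 formalin and control 4 formalin lay outside 40.7 to 93.3 CPM, and the 4 groups overlapped in part of this range. Its lowest and highest values were both in noninjected icKO libraries. Both libraries came from male animals after formalin, both were deposited under icKO, and their labelled genotypes differ.

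**Figure D1:**
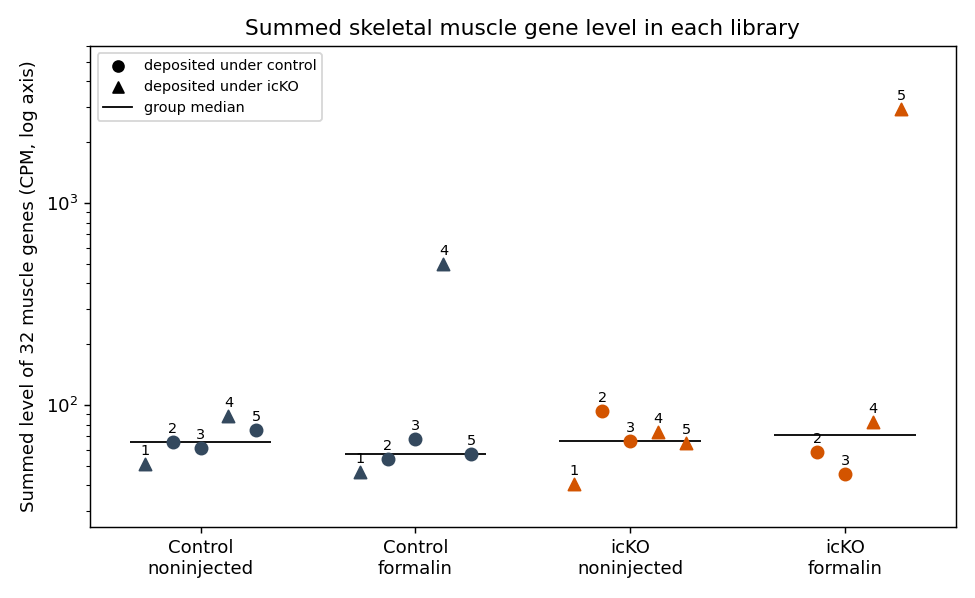
Summed level of the 32 muscle genes (CPM, log axis) in each of the 19 libraries by labelled group, with the animal number above each point, the deposited genotype word as the symbol and a line at the group median. The libraries labelled icKO 5 formalin (2914 CPM) and control 4 formalin (499 CPM) stand apart from the other 17, which lie between 40.7 and 93.3 CPM.

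Within an animal, the 2 libraries can be set against each other. In icKO 5 the formalin level was 44.9 times the noninjected level, and in control 4 it was 5.65 times. The other 7 animals with both libraries had ratios of 0.63 to 1.12, and formalin was the higher of the pair in 4 of the 9 animals. In icKO 5 and in control 4, 31 of the 32 genes were higher after formalin, while the other 7 animals had 3 to 17 such genes. The noninjected library of icKO 5 (64.9 CPM) was the median of the other 17, and that of control 4 (88.3 CPM) was the next to highest of them.

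Single genes followed the sum. Of the 32 genes, 29 had their highest level of all 19 libraries in the one labelled icKO 5 formalin, where 19.3% of the 17671 genes tested were highest. For 28 of the 32 the library labelled control 4 formalin came second, an order that 1.57% of the tested genes showed. The exceptions to the first count were Myh7, Tnnc1 and Tnni1, which are all genes of slow fibres.

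Promoters are shown for 4 of the genes, 3 whose levels stood far above the rest in the 2 high libraries (the actin Acta1, the fast myosin Myh4 and the creatine kinase Ckm) and 1 slow fibre gene whose level did not stand apart (the troponin Tnnc1). The sequences are the 250 bases before the start of the gene in RefSeq, build GRCm38.p6, written 5′ to 3′ on the gene's strand, at chr8:123894776-123895025 (minus strand), chr11:67237562-67237811 (plus), chr7:19410844-19411093 (plus) and chr14:31208062-31208311 (plus). Capitals mark matches, on either strand, to the E-box CANNTG, which myogenic factors such as MyoD bind, to the TATA box TATAAA, and to the CArG box and the MEF2 site, which serum response factor and MEF2 proteins bind. Overlapping matches run together as 1 stretch of capitals.
Acta1: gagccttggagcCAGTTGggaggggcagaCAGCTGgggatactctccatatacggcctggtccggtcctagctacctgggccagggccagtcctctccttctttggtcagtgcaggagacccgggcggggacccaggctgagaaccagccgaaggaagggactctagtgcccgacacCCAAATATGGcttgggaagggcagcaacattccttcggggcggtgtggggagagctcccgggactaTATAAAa
Myh4: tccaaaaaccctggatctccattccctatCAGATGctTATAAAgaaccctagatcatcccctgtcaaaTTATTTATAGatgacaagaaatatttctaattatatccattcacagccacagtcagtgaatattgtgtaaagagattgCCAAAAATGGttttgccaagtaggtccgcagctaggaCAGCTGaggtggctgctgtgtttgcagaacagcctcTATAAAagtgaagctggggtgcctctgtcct
Ckm: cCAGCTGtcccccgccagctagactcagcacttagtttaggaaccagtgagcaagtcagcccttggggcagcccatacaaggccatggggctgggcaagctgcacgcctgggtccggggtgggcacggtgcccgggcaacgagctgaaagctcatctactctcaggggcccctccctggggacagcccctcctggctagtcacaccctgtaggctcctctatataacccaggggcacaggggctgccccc
Tnnc1: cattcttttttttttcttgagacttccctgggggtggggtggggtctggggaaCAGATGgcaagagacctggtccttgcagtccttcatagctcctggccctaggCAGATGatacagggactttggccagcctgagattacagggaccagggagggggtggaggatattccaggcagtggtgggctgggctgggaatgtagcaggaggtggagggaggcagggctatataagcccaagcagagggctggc
Acta1 and Myh4 hold a CArG box, and Myh4 also the only MEF2 site of the 4. Acta1 ends in TATAAA just before its start, while of the motifs searched the windows of Ckm and Tnnc1 hold E-boxes alone. Only the exact letters TATAAA were searched for the TATA box. The windows of Ckm and Tnnc1 both hold the similar run TATATAA near their ends, so a lack of TATAAA does not show that they lack a TATA box. Of the 32 genes, 23 have an entry in the table, and Tnni2, Myot, Neb, Actn3, Myoz1, Tcap, Trdn, Tnnt3 and Cox6a2 have none. An E-box was found for 20 of the 23 (87.0%) and in 66.2% of all 32851 windows of this length, and TATAAA for 6 of the 23 (26.1%) and in 12.4% of all windows. The CArG box was found for 2 of the 23 and in 1.47% of all windows, and the MEF2 site for 4 of the 23 and in 2.92%. Some genes have more than 1 window in the table, and a gene was counted once where any of its windows held the motif. A match is a run of letters and not a shown binding site.

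Among the 7 thick filament genes, the 5 of fast fibres stood above the other 17 libraries in both high ones. So did the slow gene Myh7, at only 4 counts in icKO 5 formalin and 6 in control 4 formalin. The heavy chain Myh1 had the largest ratio. Myh1, the type IIx heavy chain, was at 0.113, 0.25, 0.146, 1.79 and 0.5 CPM in the noninjected control libraries and at 0.221, 0.317, 0.604, 23.6 and 0.734 in the formalin control libraries. It was at 0.239, 0.255, 0.702, 0.756 and 0.804 CPM in the noninjected icKO libraries and at 0.451, 0.348, 0.616 and 196 in the formalin icKO libraries 2 to 5. Only the formalin libraries of control 4 and icKO 5 exceeded 1.79 CPM, the level of the noninjected library of control 4. The ratio to the median of the other 18 libraries was 413 in icKO 5 formalin, the largest of the 29 genes for which a ratio could be had, and 49.7 in control 4 formalin. Those 29 genes had a median above 3 counts in the reference libraries, and Myh7, Tnnc2 and Mb did not.

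Myh4, the type IIb heavy chain of the fastest fibres, reached 250 CPM in icKO 5 formalin and 48.2 CPM in control 4 formalin. In the other 17 libraries it ranged from 0.317 to 6.76 CPM around a median of 1.33, with the top value in the noninjected library of icKO 2. Myh2, the type IIa heavy chain, was far scarcer, at 7.51 and 1.39 CPM against 0 to 0.564 in the other 17. Reads of these near-identical myosins may be shared among them, so the split between Myh1, Myh2 and Myh4 is uncertain. Myh7, the slow heavy chain, stayed at 4 counts (0.209 CPM) in icKO 5 formalin and at 0.397 CPM in control 4 formalin, against at most 0.169 CPM elsewhere.

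Of the myosin light chains, Mylpf, the regulatory light chain of fast fibres, was at 176 CPM in icKO 5 formalin, at 23.3 in control 4 formalin and at 1.44 to 3.89 in the other 17. Myl1, the essential light chain of fast fibres, was at 98.4, 15.1 and 0.16 to 2.36 CPM in the same order. Myl2, the regulatory light chain of slow fibres and heart, was at 2.45 and 0.926 CPM against 0.132 to 1.13. The fast light chains thus stood above all other libraries in both of the high ones, while Myl2 did so in icKO 5 formalin alone.

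The thin filament held the gene with the highest level in both high libraries, Tnnt3, and the 2 genes with the smallest ratios, Tnnc1 and Tnni1. Acta1, the actin of skeletal muscle, was at 3.54, 8.56, 5.11, 14.9 and 9.06 CPM in the noninjected control libraries and at 3.27, 4.75, 8.29, 61.0 and 5.54 in the formalin ones. In the noninjected icKO libraries it was at 2.55, 6.06, 6.73, 11 and 7.23 CPM, and in the formalin icKO libraries 2 to 5 at 5.36, 3.78, 11.1 and 229. Among the libraries other than the 2 high ones, animals labelled 4 of either genotype held the top levels, and the groups overlapped.

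Tnnt3, the troponin T of fast fibres, which ties the troponin complex to tropomyosin, had the highest level per length of the 32 genes in icKO 5 formalin, at 382 CPM per kilobase of exon, ahead of Mylpf at 166, Acta1 at 149 and Tnni2 at 147. Its level was 604 CPM there, 81.0 CPM in control 4 formalin and 0.957 to 11 CPM in the other 17. Tnni2, the inhibitory subunit of fast fibres, was at 220, 37.6 and 0.558 to 5.42 CPM. Tnnc2, the calcium-binding subunit of fast fibres, was much scarcer, with 128 counts (6.68 CPM) in icKO 5 formalin, 0.86 CPM in control 4 formalin and 0 to 0.319 CPM elsewhere.

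The 3 slow partners of these subunits behaved otherwise. Tnnc1, the calcium-binding subunit of slow fibres and heart, was at 1.36 CPM in icKO 5 formalin and 1.65 in control 4 formalin, inside the 0.506 to 1.82 CPM of the other 17. Tnni1, the slow inhibitory subunit, was at 2.61 and 1.59 CPM, inside 1.04 to 2.96. Tnnt1, the slow troponin T, was at 2.19 and 1.72 CPM, above the 0.319 to 1.18 CPM of the other libraries, with ratios of 2.81 and 2.21 to the median of the other 18.

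All 8 genes of the Z disc and of the giant proteins that span the sarcomere were above the other 17 libraries in both high ones. Ttn, which encodes titin, the molecular spring of the sarcomere, was at 180 CPM in icKO 5 formalin, 20.2 in control 4 formalin and 1.06 to 3.57 elsewhere. Neb, encoding the thin filament ruler nebulin, was at 90.3, 13.1 and 2.68 to 6.38 CPM. The smallest ratio of the group was that of Actn2, an alpha-actinin also made in heart and neurons, at 4.38 in icKO 5 formalin and 1.60 in control 4 formalin, and its fast fibre counterpart Actn3 had 36.1 and 6.82.

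The other Z disc genes had low levels in the other 17 libraries. Xirp2, an actin-binding protein, had a ratio of 148 in icKO 5 formalin and 13.8 in control 4 formalin, from a median of 0.336 CPM in the other 17. Myoz1, which anchors calcineurin to the Z disc of fast fibres, had ratios of 96.5 and 15.6, and Myot, encoding myotilin, had 87.7 and 9.01. Tcap, which caps the end of titin, had 37.2 and 11.7. For Xirp2 the level in icKO 5 formalin was 10.7 times that in control 4 formalin, the highest such ratio of the 32 genes.

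The 5 genes of calcium release and uptake were also above the other 17 libraries in both. Atp2a1, the calcium pump of fast fibres, was at 97.6 and 21.8 CPM against 0.399 to 3.02. Casq1, the calcium-storing protein of the reticulum, was at 58.4 and 7.74 against 1.44 to 4.46, and Trdn, encoding triadin of the release complex, was at 44.1 and 5.76 against 0 to 0.638. Ryr1, the release channel, had a smaller ratio of 9.66 in icKO 5 formalin and 3.09 in control 4 formalin, and Cacna1s, the voltage sensor that opens it, had 17.6 and 5.51 from a median of 0.205 CPM in the other 17.

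Among the 5 energy genes, the muscle creatine kinase Ckm was at 0.9, 1.56, 1.53, 3.76 and 2.19 CPM in the noninjected control libraries and at 1.06, 1.42, 2.68, 30.6 and 1.6 in the formalin ones. It was at 0.798, 4.4, 1.64, 3.02 and 1.73 CPM in the noninjected icKO libraries and at 1.2, 1.04, 1.85 and 188 in the formalin icKO libraries 2 to 5. As for Acta1, the groups overlapped outside the 2 high libraries. Mb, encoding the oxygen store myoglobin, was at 18.1 and 2.58 CPM against 0 to 0.658, and Cox6a2, a muscle subunit of cytochrome oxidase, was at 14.6 and 4.17 against 0.146 to 0.873.

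Eno3, the beta enolase of glycolysis, and Pygm, the muscle glycogen phosphorylase, had the highest base in other libraries. Eno3 was at 9.25 to 15.5 CPM in the other 17 libraries, with ratios of 7.93 in icKO 5 formalin and 2.10 in control 4 formalin. Pygm was at 3.13 to 10.2 CPM, with ratios of 9.01 and 2.94. Per length, the median of the other 17 libraries was 6.65 CPM per kilobase for Eno3, 3.94 for Acta1, 2.29 for Tnnt3, 2.11 for Mylpf and 1.94 for Pygm.

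**Figure D2:**
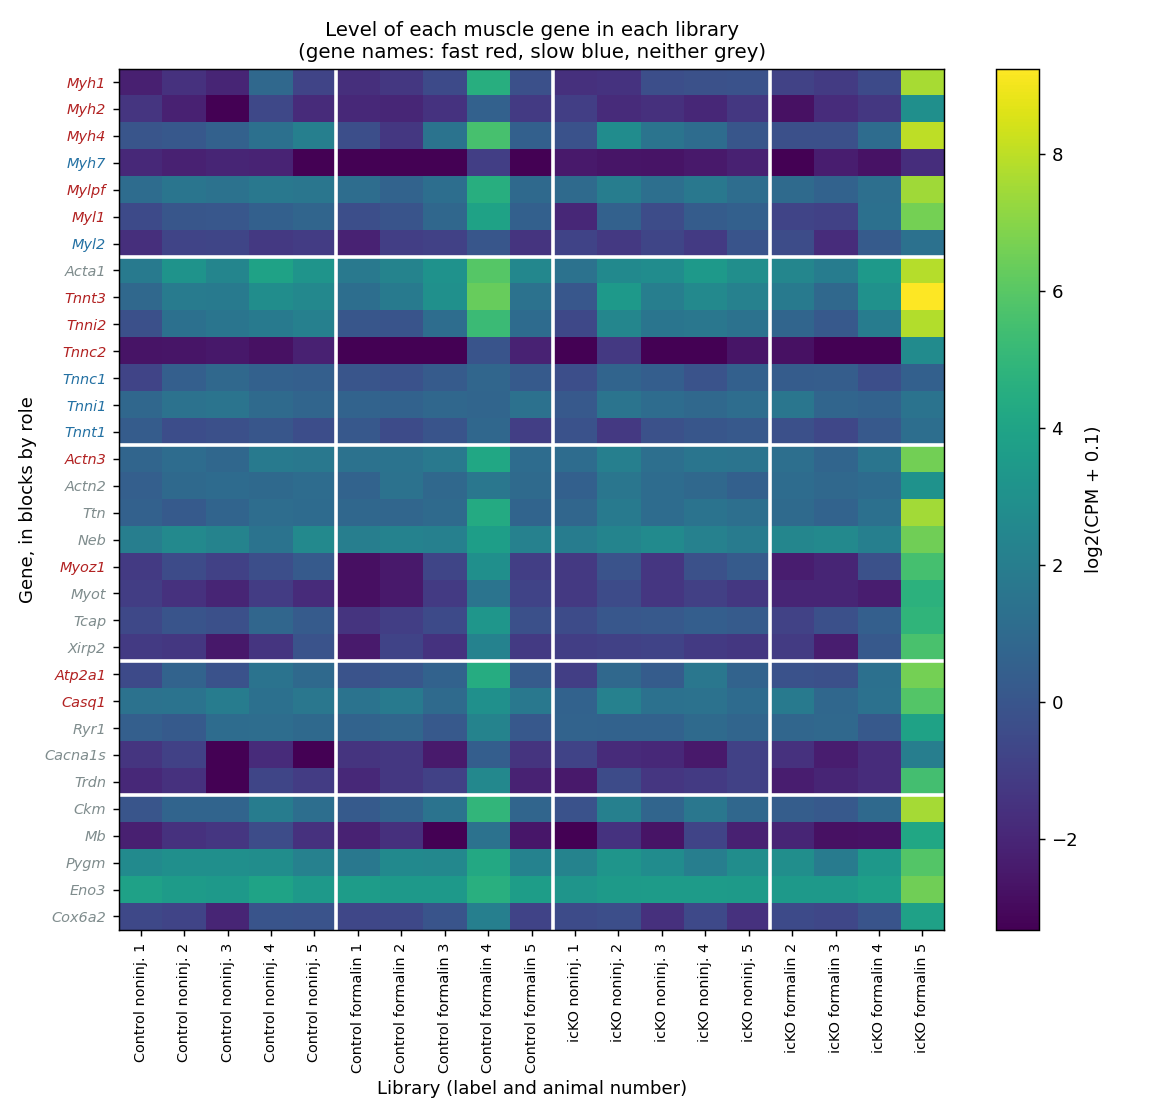
Level of each of the 32 genes (rows, in blocks for thick filament, thin filament, Z disc and titin, calcium, and energy) in each of the 19 libraries (columns), as log2(CPM + 0.1), with fast fibre genes named in red, slow in blue and the rest in grey. The column of icKO 5 formalin is brightest for 29 genes, that of control 4 formalin second for 28, and the rows of Tnnc1 and Tnni1 show no such column.

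Fast and slow fibre genes can be set against each other within a library, where depth and scaling are shared. The 12 fast genes summed to 1856 CPM in icKO 5 formalin, 286 CPM in control 4 formalin and 9.25 to 40.5 CPM in the other 17 libraries. The 5 slow genes summed to 8.82, 6.28 and 3.11 to 5.98 CPM. The median ratio to the other 18 libraries in icKO 5 formalin was 89.8 over the 11 fast genes with a ratio (22.3 to 413), 2.15 over the 4 slow genes with one (1.16 to 5.93) and 30.6 over the 14 in neither list. In control 4 formalin these medians were 15.3 (2.96 to 49.7), 1.81 (0.861 to 2.24) and 8.13. The ranges of the fast and slow genes did not overlap in either library.

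The fast share of the fast plus slow counts was 99.5% in icKO 5 formalin (exact 95% binomial interval 99.5% to 99.6%) and 97.8% in control 4 formalin (97.4% to 98.3%). In the other 17 libraries it was 73.7% to 89.1%, so that neither interval reached them. For the 3 troponin pairs alone, where each fast subunit has its slow partner, the share was 99.3% (99.1% to 99.4%) and 96.0% (95% to 96.9%) in the 2 libraries and 37.3% to 79.0% in the others. These intervals cover counting error only. The next highest shares were those of icKO 4 formalin (79.0%) and icKO 2 noninjected (78.5%), whose summed levels were among the highest of the 17. The troponin genes are part of the summed level, so the share and the sum are not independent.

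**Figure D3:**
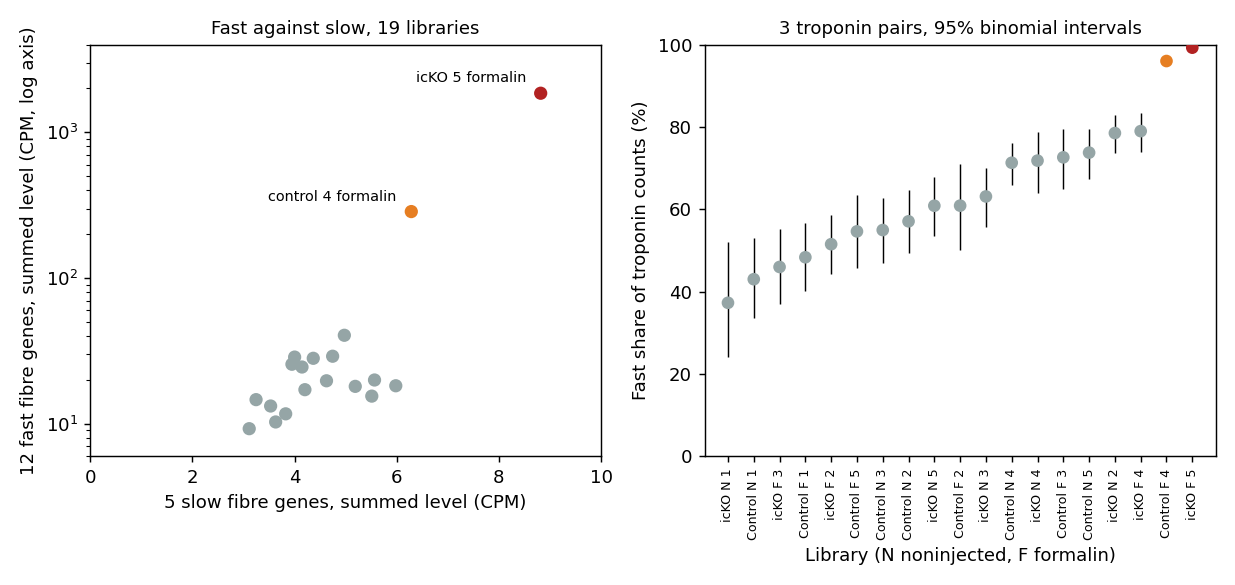
Left, summed level of the 12 fast fibre genes (CPM, log axis) against that of the 5 slow fibre genes (CPM) in the 19 libraries. Right, fast share of the counts of the 3 troponin pairs per library in rising order, with exact 95% binomial intervals; icKO 5 formalin (99.3%) and control 4 formalin (96.0%) stand above the other 17 (37.3% to 79.0%).

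Both high libraries can also be compared with each other directly. The level in icKO 5 formalin was a median of 5.35 times that in control 4 formalin over the 32 genes, with a range of 0.526 (Myh7) to 10.7 (Xirp2). Makeup by role was alike. Thin filament genes took 36.6% of the summed level in icKO 5 formalin and 37.1% in control 4 formalin, thick filament genes 25.1% and 22.6%, Z disc and titin genes 18% and 15.7%, energy genes 12.8% and 16.2%, and calcium genes 7.52% and 8.29%. Of the summed medians of the other 17 libraries, energy genes took 33.5% and thick filament genes 9.39%. Eno3 alone took 19.3% of these summed medians.

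**Figure D4:**
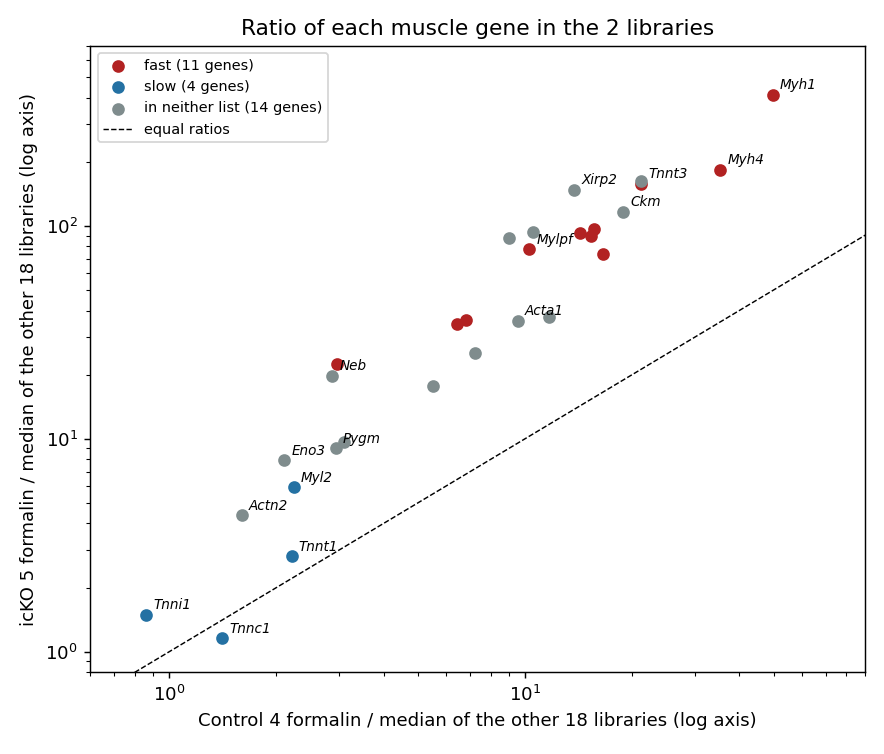
Ratio of each gene's level to the median of the other 18 libraries in icKO 5 formalin (vertical, log axis) and control 4 formalin (horizontal, log axis) for the 29 genes with a ratio, in red for fast, blue for slow and grey for neither list; the reference libraries are largely the same for both axes. Fast genes such as Myh1 (413 and 49.7) lie at the upper right, and the slow genes Tnnc1 and Tnni1 lie near 1.

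Among the other 17 libraries, the noninjected library of icKO 2 held the highest level for 12 of the 32 genes and that of control 4 for 7, while the formalin library of icKO 4 held it for 5. In male libraries the summed level had a median of 74.4 CPM (n = 10, the 2 high ones included) and in female libraries 54.1 CPM (n = 9), with overlapping ranges of 57.2 to 2914 and 40.7 to 93.3 CPM.

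The study's comparisons were fitted to all genes with edgeR's quasi-likelihood test with sex as a covariate, and p-values were adjusted over the 17671 genes that passed the filter on low counts. Of the 32 muscle genes 25 passed it; Myh2, Myh7, Tnnc2, Myot, Cacna1s, Trdn and Mb did not and were not tested. Passing depends on the levels of the high libraries, so the counts below describe the tested genes and not the whole set.

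Formalin against noninjected libraries, over both genotypes, called 0 of the 25 genes at an adjusted p under 0.05, as it called 0 of all genes (0%). The median log2 fold of the 25 was 1.66, with 23 positive, beside a median of -0.002 and 49.3% positive over all genes tested. At an unadjusted p under 0.05 there were 11 of the 25, all higher after formalin, and 2.91% of all genes, 1.43% being higher. Myh1 had a log2 fold of 4.06 (SE 1.27, adjusted p = 0.929), Myl1 2.46 (SE 0.92) and Cox6a2 1.72 (SE 0.65), the 3 with the smallest p. Ckm had 2.17 (SE 1.01), Mylpf 1.89 (SE 0.90) and Acta1 1.38 (SE 0.71), each with the same adjusted p of 0.929. With the animal as a block, so that each formalin library is set against its own noninjected partner, the median was 0.74 and 0 were called. Without icKO 5 formalin the median was 0.28, and without both high libraries it was -0.16 over the 24 genes then tested, with 5 positive.

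Labelled icKO against labelled control in formalin libraries also called 0 of the 25 (0% of all genes), with a median log2 fold of 1.89 and all 25 positive, where 49.2% of all genes were. At an unadjusted p under 0.05 there were 11 of the 25, all higher in icKO, and 12.6% of all genes, 6.43% being higher. Smallest in p were Myl2 at 1.37 (SE 0.47), Neb at 1.96 (SE 0.72) and Xirp2 at 3.05 (SE 1.17), each with an adjusted p of 0.366, while Mylpf had 2.52 (SE 1.09, adjusted p = 0.371), Ckm 2.34 (SE 1.16, adjusted p = 0.411) and Acta1 1.69 (SE 0.89, adjusted p = 0.431) by the same test. Mean levels of Acta1 were 62.4 ± 111 CPM (SD, n = 4) in the formalin icKO libraries and 16.6 ± 24.9 (SD, n = 5) in the formalin control libraries, so that the spread exceeded the mean in both groups. Without icKO 5 formalin the median fold was -0.87, without control 4 formalin it was 2.80, and without both it was 0.19.

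This comparison depends on which record of genotype is used. Grouped by the deposited word, both high libraries fall among the icKO libraries, and 7 of the 25 genes were called, all higher in icKO, where 3.96% of all genes were called. They were Myh4 (log2 fold 5.30, SE 1.39), Myoz1 (4.83, SE 1.28), Tnni2 (4.54, SE 1.21), Mylpf (4.29, SE 1.10), Atp2a1 (4.06, SE 1.09), Myl1 (4.03, SE 1.08) and Tnnt1 (1.13, SE 0.30), with edgeR adjusted p of 0.0404 to 0.0492, and they are named here because they passed and not by a rule. In this grouping the summed level was 46.7 to 2914 CPM in the 4 icKO libraries and 45.7 to 67.7 CPM in the 5 control libraries, and the groups overlapped. Without the 2 high libraries this grouping called 0 of the 25, where 0.418% of all genes were called, and the median fold was 0.18. Over the 6 animals whose records agree, 1 of the 25 was called, Myl2 (2.29, SE 0.51, adjusted p = 0.0177), where 9.14% of all genes were called, and 0 of the 25 were called without icKO 5 formalin, where 5.64% were. In the other 3 comparisons these 6 animals gave 0 muscle genes, where 0.00566% (formalin), 4.7% (genotype, noninjected) and 0.368% (interaction) of all genes were called, and 0.0496%, 11.7% and 0.512% without icKO 5 formalin.

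In noninjected libraries, labelled icKO against labelled control called 0 of the 25 (0% of all genes), and 0 had an unadjusted p under 0.05, where 8.7% of all genes did, 4.3% being higher. The median log2 fold was 0.44 with 21 positive, beside -0.02 and 45.9% positive over all genes. Myl2 had 0.61 (SE 0.51, adjusted p = 0.737), Myh4 2.07 (SE 1.88, adjusted p = 0.764) and Ttn 1.26 (SE 1.33, adjusted p = 0.802), the smallest in p. Values for Ckm were 1.12 (SE 1.49), for Mylpf 0.44 (SE 1.26) and for Acta1 0.10 (SE 0.96), with edgeR adjusted p of 0.851, 0.942 and 0.987. With the deposited word in place of the title, the median was -0.46, and 0 of the 25 were called where 9.38% of all genes were. Without the 2 high libraries that grouping called 2 of the 25 in noninjected libraries, where 12.5% of all genes were called, namely Neb (-0.59, SE 0.15, adjusted p = 0.0158) and Tnni2 (-1.20, SE 0.37, adjusted p = 0.0421), both lower in icKO.

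The interaction, which asks whether the formalin difference itself differs between the labelled genotypes, called 0 of the 25 (0% of all genes), and 0 had an unadjusted p under 0.05 against 5.22% of all genes, 2.63% being higher. Its median was 1.28 with 25 positive, where 52.1% of all genes were. Neb had 1.79 (SE 1.04), Eno3 1.16 (SE 0.68) and Casq1 1.77 (SE 1.14), each with an adjusted p of 0.786, and Mylpf had 2.08 (SE 1.70), Acta1 1.59 (SE 1.32) and Ckm 1.22 (SE 1.95), with edgeR adjusted p of 0.798, 0.799 and 0.885. Without icKO 5 formalin the median was -1.23, and without both high libraries 0.21. By the deposited word the median was 3.48, and 0 of the 25 were called, but 19 had an unadjusted p under 0.05 where 23.7% of all genes did. Over the 6 animals with agreeing records the median was 4.35, with 12 of the 25 at an unadjusted p under 0.05 where 25.3% of all genes were. Without the 2 high libraries the deposited word gave 0.33 and 2 of the 25 (10.6% of all genes). Without icKO 5 formalin, which leaves a lone formalin icKO library, the 6 animals gave a median of 0.45.

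By fibre type, the 10 tested fast genes had a median log2 fold of 1.98 for formalin and 2.36 for labelled genotype in formalin libraries, all 10 positive in both. The 4 tested slow genes had medians of 0.11 and 0.28, with 2 and 4 positive. Without icKO 5 formalin the fast medians were 0.38 with 9 of 10 positive and -1.36 with 0 positive, and without both high libraries -0.26 with 1 positive and 0.16 with 6 positive. The slow medians without both were -0.10 with 1 of 4 positive and 0.15 with 4 positive. The filter on low counts changed these calls. Without it, over 39085 genes, 26 of the 32 were called for formalin (0.481% of all genes), 6 for genotype in noninjected libraries (1.25%), 26 for genotype in formalin libraries (3.26%) and 17 for the interaction (1.08%), all with positive folds. The fold of Acta1 for formalin was then 1.38 with an SE of 0.105 instead of 0.712, although its 9 formalin levels ran from 3.27 to 229 CPM. The cause of this was not tested. With the filter, none of either fibre list was called in any of the 4 comparisons with labelled genotypes.

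Genes outside the set were read in the same libraries. Of 54 other genes of skeletal muscle, 46 were above the other 17 libraries in icKO 5 formalin and 32 in control 4 formalin, where 19.7% and 6.04% of the 17671 genes tested were. Like the 32 genes, these 54 were chosen with earlier results of these data known, so the counts are a description. Mybpc1, a myosin-binding protein, was at 36 and 3.24 CPM against at most 0.423, and Ckmt2, the mitochondrial creatine kinase of muscle, at 13.6 and 0.728 against at most 0.611. Their summed level is set mostly by genes that ganglia also express, such as Eef1a2 (267 and 272 CPM) and Fhl1 (266 and 249 CPM).

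Among the 13958 genes with at least 50 counts in icKO 5 formalin, the 20 with the largest ratio of icKO 5 formalin to the next highest library held 10 members and 8 genes on the list of other skeletal muscle genes. For these 18 the next highest library was control 4 formalin. Both sets were chosen with earlier results of these data known, so their number in this ranking is a description. Ckmt2 led with 18.6 times the next library, followed by Lmod2 (18.3), Mylk4 (12.6), Mybpc1 (11.1) and Xirp2 (10.7).

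Markers of muscle precursors and of immature muscle, named for their level after it was seen, were mostly at or near 0 or inside the range of the other libraries. Pax7, which marks satellite cells, had 0 counts in both high libraries, and Myod1 and Myog, regulators of myogenic differentiation, had 2 counts each in icKO 5 formalin. Myf6, the regulator found in mature fibres, had 38 counts (1.98 CPM) there and at most 0.168 CPM in the other 17. The 8 satellite cell and myogenic genes summed to 40.5 CPM in icKO 5 formalin and 32.8 in control 4 formalin, inside 27.2 to 44.7. Of these 8, 2 and 1 were above the other 17. The developmental myosins Myh3 and Myh8 were at 0.313 and 1.83 CPM in icKO 5 formalin, within or below the ranges of 0.345 to 1.06 and 1.31 to 3.91 CPM. With Myl4, the 3 genes of this list summed to 5.43 CPM in icKO 5 formalin and 7.61 in control 4 formalin, inside 4.19 to 7.96. Of these 3, 0 and 1 were above the other 17. Chrnd, a subunit of the muscle acetylcholine receptor, had 0 counts in all 19 libraries, and the cardiac myosin Myh6 was at 6.68 CPM against a median of 9.77 in the other 17. The 6 neuromuscular junction genes summed to 10.6 CPM in icKO 5 formalin and 12.4 in control 4 formalin, inside 7.55 to 14.3. Of these 6, 0 and 2 were above the other 17 libraries. The 10 cardiac genes summed to 103 and 111 CPM, inside 85.9 to 135, with 3 and 2 above the other 17. Over all genes tested, 19.7% and 6.04% were.

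Other tissues differed between the 2 libraries. In icKO 5 formalin the 7 tendon genes summed to 128 CPM against 49.4 to 108 in the other 17, while control 4 formalin was inside the range at 81.2. Of the 7, 2 were above the other 17 in icKO 5 formalin, where 19.7% of all genes tested were. These were Tnmd (4.17 CPM against at most 1.19) and Thbs4 (57.9 against at most 40). The 7 red cell genes summed to 1746 CPM against 133 to 1500 in the other 17, and to 392 in control 4 formalin. The 10 sensory neuron genes summed to 6047 CPM in icKO 5 formalin, below the 7405 to 10597 CPM of the other 17, and to 7684 in control 4 formalin, with Prph, an intermediate filament of sensory neurons, at 1000 and 1398 CPM against 1333 to 2020. Smooth muscle (224 CPM) and adipocyte genes (121 CPM) were high in control 4 formalin but inside the ranges of the other 17, which reached 247 and 189. Neutrophil genes summed to 1555 and 1265 CPM, inside a range that reached 3377 in icKO 4 formalin. The part of these tissues in the muscle levels was not tested, and in bulk RNA fewer cells of a type cannot be told apart from less RNA per cell.

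**Figure D5:**
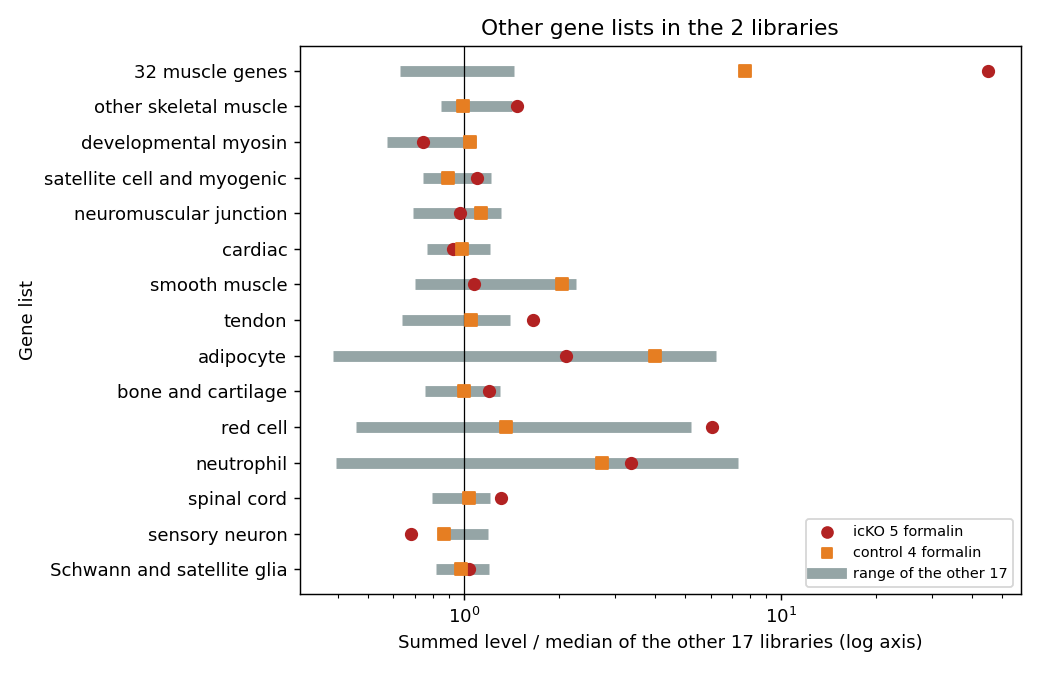
Summed level of each gene list divided by its median over the other 17 libraries (log axis), for icKO 5 formalin (circles) and control 4 formalin (squares), with a grey bar for the range of the other 17. The 32 muscle genes stand far to the right of their bar in both libraries. In icKO 5 formalin the other skeletal muscle, red cell, tendon and spinal cord lists lie just above theirs and sensory neuron genes below.

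Genes outside the set and above a floor of mean log2 level were ranked by likeness to the summed muscle level across all 19 libraries. Muscle genes scarce in most libraries, such as Ckmt2 and Lmod2, fell below this floor and were not ranked. The closest were Mybpc2, a fast fibre myosin-binding protein (Spearman's rho 0.86), Als2cl (0.84), Ch25h (0.84), Usmg5 (0.83) and D730003I15Rik (0.83). The 15 closest had rho of 0.79 to 0.86 and also held Gata2, Naca, Vegfc, S100a1, Rps3, Rbpms, Rps24, Angptl7, Tent5a and Tmsb4x. Of these, Mybpc2 alone had a large ratio in the high libraries, at 41.5 and 8.27 CPM against a median of 1.02 in the other 17. Als2cl was at 12 and 16.1 against 10.6. These ranks rest on 17 libraries with a narrow range of muscle levels and are a description over libraries that share animals.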

How the data were processed

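PolyA RNA of lumbar ganglia was sequenced from 10 mice, 2 libraries each. Whole-number counts for each Ensembl gene ID, unscaled, were deposited by the authors. The submitters' processing notes list the tools featureCounts 2.0.1, STAR 2.7.8a and bcl2fastq 2.20.0.422, and the build GRCm39. How reads matching several genes or strands were handled, and which annotation release, is not given in these sources. Reads of near-identical myosins and of overlapping genes are therefore uncertain at the single gene. Names came from a table that matched 52083 of 55416 IDs.

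The members and lists were chosen with earlier results of these data known. Libraries were grouped by title; those over 1000000 counts were used. Levels are counts over TMM-scaled library totals of 1000000; levels per length use exon lengths of a GRCm38 annotation. All genes were fitted with edgeR 4.0.16 (R 4.3.3; filterByExpr, TMM, robust quasi-likelihood test, 4 groups plus sex), Benjamini-Hochberg adjusted, threshold 0.05; the fit was tested on simulated data. Pooled tests treat the 2 libraries of an animal as separate samples. Titles give both libraries of an animal 1 number, so they pair; the correlation of their deviations from group means was -0.25 to 0.45 over 9 animals. Library shares have exact 95% binomial (Clopper-Pearson) intervals, which cover counting error only, since PCR copies are not independent molecules. Folds were given for Acta1, Ckm, Mylpf and, had it been tested, Myh7, and for the 3 members with the smallest p per comparison; genes outside the set were named by rank of ratio, level or likeness, except defining markers at or near 0, which were named for their level, and genes said to be named because they passed. Alternatives were DESeq2 1.42.0, other scaling (RLE), no filter, no sex term, each library left out, the small library kept, the deposited genotype word, the 6 animals with agreeing records, and blocks for title number or animal. Fits without the 2 libraries highest in muscle genes, and, for the 6 animals, without icKO 5 formalin, were added after the data were seen.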

Additional observations from a re-analysis of the deposited data

Results flagged for a closer look

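Within each labelled group, the highest and lowest library were compared with the others by the gap to the nearest library over the group's range, on log2(CPM + 0.1). Of 132 group values tested, 35 passed Dixon's 95% limit, 15 of them in icKO 5 formalin and 15 in control 4 formalin. The genes are not independent of each other, the summed level is made of them, and the set was chosen with earlier results known. The number of flags is therefore a description and cannot be set against a chance rate. In the formalin icKO group, icKO 5 stood apart in the summed level (2914 CPM) and in 14 single genes, in CPM Myh1 (196), Myh4 (250), Mylpf (176), Tnnc2 (6.68), Actn3 (94.1), Actn2 (8.35), Ttn (180), Neb (90.3), Myot (26.4), Trdn (44.1), Ckm (188), Mb (18.1), Eno3 (92.1) and Cox6a2 (14.6). In the formalin control group, control 4 stood apart in the summed level (499 CPM) and in 14 single genes, in CPM Myh1 (23.6), Myh7 (0.397), Mylpf (23.3), Myl1 (15.1), Tnni2 (37.6), Actn3 (17.8), Ttn (20.2), Neb (13.1), Tcap (9.46), Atp2a1 (21.8), Trdn (5.76), Ckm (30.6), Eno3 (24.4) and Cox6a2 (4.17).

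The other 5 values that stood apart lay in noninjected libraries and were low: Myh7 in control 5 (0 CPM), Tnnc1 (0.506 CPM) and Actn2 (1.29 CPM) in control 1, Tnnt1 in icKO 2 (0.319 CPM) and Eno3 in icKO 1 (9.25 CPM). Groups of 4 and 5 libraries give this rule little to work with, and no value was left out of the fits because of it.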

How the results depend on the processing

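Each of the 4 comparisons called 0 genes and 0 muscle genes (formalin against noninjected, then labelled genotype in noninjected libraries, in formalin libraries, and the interaction). Both counts were 0 to 0 in the 19 fits that left out 1 library each, with RLE scaling, without the sex term, with the small library kept and without the 2 high libraries. DESeq2 called 0, 1, 16 and 0 genes and 0 muscle genes, with an adjusted p of NA for 11, 25, 14 and 11 of the 25. Without the filter, 188, 490, 1274 and 423 of 39085 genes and 26, 6, 26 and 17 of the 32 muscle genes were called; the SE of Acta1 for formalin was then 0.105 instead of 0.712, and the cause was not tested. By the deposited word, 0, 1658, 699 and 0 genes were called, 7 of the 699 being muscle genes, and without the 2 high libraries 0, 2264, 76 and 0, 2 of the 2264 being muscle genes. Over the 6 animals with agreeing records the counts were 1, 831, 1615 and 65, with 1 muscle gene in the third comparison, and 9, 2128, 1024 and 93 with 0 muscle genes without icKO 5 formalin, where the lone formalin icKO library is assumed to vary like the other groups. The replicate block by title number called 1 gene in formalin libraries, and the replicate block by animal 0 genes for formalin and for the interaction; no muscle gene was called under either. In icKO 5 formalin, control 4 formalin and the median of the other 17, the summed level of 2914, 499 and 64.9 CPM was 2864, 512 and 61.9 CPM by library totals, and 2310 and 418 CPM without the largest member. From the 14 members at or under 1 CPM in the median library alone it was 448, 66.9 and 5.15 CPM. The fast share was 99.3%, 96.0% and 60.8% with troponin pairs alone; counts per length moved it by less than its interval or spread.

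Signs of single folds changed as follows, with the cause not tested. Without the 2 high libraries they were, for formalin, Acta1 -0.27, Ckm -0.49, Mylpf -0.48 and Myh1 -0.15, for genotype in noninjected libraries Acta1 -0.14, for genotype in formalin libraries Ckm -0.18 and Mylpf -0.0075, and for the interaction Ckm -0.58 and Mylpf -0.026. By the deposited word they were, in noninjected libraries, Acta1 -0.37, Ckm -0.68, Mylpf -0.46, Myl2 -0.18, Myh4 -1.72 and Ttn -0.29. With both changes they were, for formalin, Acta1 -0.25, Ckm -0.50, Mylpf -0.42 and Myh1 -0.19, in noninjected libraries Acta1 -0.24, Ckm -0.42, Mylpf -0.28, Myl2 -0.15, Myh4 -1.47 and Ttn -0.076, and in formalin libraries Ckm -0.19 and Neb -0.26. Over the 6 animals, Acta1 had -0.22, Mylpf -0.22 and Myh4 -0.82 in noninjected libraries. Without icKO 5 formalin these became Acta1 -0.24, Mylpf -0.21 and Myh4 -0.77, with Ckm -0.049 and Mylpf -0.37 for formalin, Ckm -0.23 and Neb -0.083 in formalin libraries and Ckm -0.23 for the interaction. In noninjected libraries Acta1 had -0.31 and Mylpf -0.025 without the sex term, and Acta1 -0.25 with the replicate block by title number. Ckm had -0.19 in the interaction with the replicate block by animal.

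With 1 library left out, folds for genotype in formalin libraries ran from -0.76 to 2.91 (Acta1), -1.79 to 4.05 (Ckm), -1.34 to 3.89 (Mylpf), -0.24 to 2.37 (Neb) and -0.87 to 3.48 (Xirp2), and for the interaction from -0.72 to 2.89 (Acta1), -2.44 to 3.17 (Ckm), -1.51 to 3.57 (Mylpf), -0.25 to 2.22 (Neb), -0.058 to 1.46 (Eno3) and -0.43 to 2.28 (Casq1). The low ends are those without icKO 5 formalin. In noninjected libraries Acta1 ran from -0.20 to 0.75 and Mylpf from -0.00023 to 0.95. Depth limits the scarce genes: Myh7 had 4 counts in icKO 5 formalin and could not be tested.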
